A study of Mus musculus with 3 samples.

Results

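Single-cell transcriptomes of the mouse small intestinal epithelium were examined for 7 gut peptide hormone genes, Cck, Gip, Sst, Gcg, Pyy, Nts and Ghrl, which were taken by their symbols from the 31053 genes of the count tables. Their levels and their joint detection were read in endocrine barcodes, which were the barcodes with 800 to 50000 UMIs, at most 40% mitochondrial UMIs and at least 1 UMI of Neurod1 or Chga. These were 882 of 27235 barcodes, or 882 of the 16774 barcodes within the UMI and mitochondrial limits. The choice used neither the hormone RNAs nor any comparison of segments. Neurod1 encodes a transcription factor of the enteroendocrine lineage, and Chga encodes chromogranin A of the secretory granule. The 3 samples were intestinal epithelial cells from the duodenum, jejunum and ileum of male C57BL/6N wildtype mice aged 12 weeks, untreated as far as the labels say, and each library pooled the cells of 3 mice. Live cells that excluded propidium iodide were sorted and captured with 10x Genomics 3′ v3 chemistry. There was 1 library per segment, so differences between segments have no replicate check and were not tested.

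Enteroendocrine cells are scattered, hormone-secreting cells of the gut lining that sense nutrients and release peptides into the blood. Classical names follow the main product. I cells make cholecystokinin (Cck), which contracts the gallbladder and curbs feeding, K cells make the incretin GIP (Gip), and D cells make somatostatin (Sst), which restrains other endocrine cells. L cells make proglucagon (Gcg), the precursor of GLP-1, and peptide YY (Pyy), N cells make neurotensin (Nts), and X cells make the hunger hormone ghrelin (Ghrl). Many of these cells are known to hold more than one hormone mRNA, and the mixture changes along the gut and from crypt to villus.

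The libraries held 9501, 8139 and 9595 barcodes for the duodenum, jejunum and ileum and 98518847, 87656078 and 78074516 UMIs, and 4281, 4380 and 8113 barcodes were within the limits. The endocrine barcodes numbered 124, 199 and 559, with median depths of 14806, 14150 and 7829 UMIs. Of the 882, 641 had Chga without Neurod1, 82 had Neurod1 without Chga and 159 had both. The marker check divided these sets. A median of 1 of 12 endocrine markers was found per endocrine barcode against a median of 11 of 12 enterocyte markers, whereas the 159 barcodes with both Neurod1 and Chga, called core barcodes here (47, 22 and 90 in the duodenum, jejunum and ileum), held a median of 9 endocrine markers. Of the 10 endocrine markers other than Neurod1 and Chga the medians were 0 and 7. UMIs of 12 enterocyte markers made up a median of 4.96% of UMIs in the endocrine barcodes and 0.655% in the core barcodes. Most endocrine barcodes therefore carried no defining marker of enteroendocrine cells beyond the one that chose them, and results are given for both sets. Of the endocrine barcodes 5 had a sequence that also occurred in another library, within the limits or not, and of the core barcodes 0 had.

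The 80 bases before the RefSeq transcription start (assembly GRCm38.p6) are shown for 4 members, because Sst with Ghrl and Cck with Gcg were the pairs found together most completely in single barcodes. Capitals mark a match to TATAA or to the cAMP response element TGACGTCA on either strand. For Ghrl the start farthest upstream of 4 was taken.
Sst, chr16:23890845-23890924, minus strand: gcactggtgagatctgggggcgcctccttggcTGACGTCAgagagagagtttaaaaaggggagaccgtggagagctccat
Ghrl, chr6:113719912-113719991, minus strand: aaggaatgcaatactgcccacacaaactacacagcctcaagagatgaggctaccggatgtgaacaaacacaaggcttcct
Cck, chr9:121495695-121495774, minus strand: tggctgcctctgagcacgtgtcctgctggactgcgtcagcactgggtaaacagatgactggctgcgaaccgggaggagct
Gcg, chr2:62483654-62483733, minus strand: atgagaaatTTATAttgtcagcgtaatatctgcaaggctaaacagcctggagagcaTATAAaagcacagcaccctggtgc
Within this window, TATAA was found before 3 of the 7 genes (Gip, Gcg and Pyy) and before 8.74% of 32851 RefSeq promoters. The letters TGACGTCA were found before Sst alone among the 7 members, 48 bases before its start, and before 0.992% of all promoters. The E-box CANNTG was found before Cck, Gip and Pyy and before 28.1% of all promoters. Neither pair shared a match, and a match describes letters, not a bound site.

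The hormones made up as much as 44.0% of the UMIs of a core barcode, and each segment had its own mixture. Every level is a gene's UMI count divided by the total UMI count of a set of barcodes, times 10000, and since the chemistry counts 1 tag per captured transcript end, they were not divided by gene length. In core barcodes of the duodenum Gip was highest at 540, followed by Sst at 321, Cck at 289, Ghrl at 74.7, Nts at 43.3, Gcg at 36.4 and Pyy at 1.32. In the jejunum Gip was again highest at 657, followed by Nts at 332, Sst at 262, Cck at 152, Pyy at 97.7, Ghrl at 84.5 and Gcg at 11.2. In the ileum the order was Nts at 469, Pyy at 194, Gcg at 120, Gip at 39.6, Cck at 30.8, Sst at 0.694 and Ghrl at 0.390. Proximal hormones (Gip, Sst, Cck and Ghrl) thus led in the duodenal library and Nts, Pyy and Gcg in the ileal library, with a mixture of both in the jejunal one. Exact Poisson 95% intervals of neighbours in these orders did not overlap except for ileal Sst (0.534 to 0.886) and Ghrl (0.273 to 0.540). All intervals here cover counting error only.

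The same levels were lower in all endocrine barcodes, 752 of which held too few hormone UMIs to be called positive by the definition given further on. Cck was at 134, 13.4 and 4.35 in the duodenum, jejunum and ileum, Gip at 227, 67.7 and 5.54, and Sst at 127, 22.8 and 0.143. Gcg was at 13.8, 0.974 and 17.1, Pyy at 0.506, 8.54 and 27.2, Nts at 16.4, 29.0 and 66.3, and Ghrl at 34.0, 7.47 and 0.0737. On this set Cck, Gip, Sst and Ghrl were highest in the duodenum, whereas in core barcodes Gip and Ghrl were highest in the jejunum. The jejunal Ghrl level of core barcodes was 30.8 without 1 barcode, under the duodenal 74.7, and that of Gip was 439, under the duodenal 540. In T cell barcodes, which have UMIs of at least 2 of Cd3d, Cd3e and Cd3g and should lack these genes, no hormone exceeded 0.518 (Nts in the ileum), and in all other barcodes within the limits none exceeded 0.407. A level of this kind cannot tell more hormone-bearing barcodes from more RNA per barcode.

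**Figure D1:**
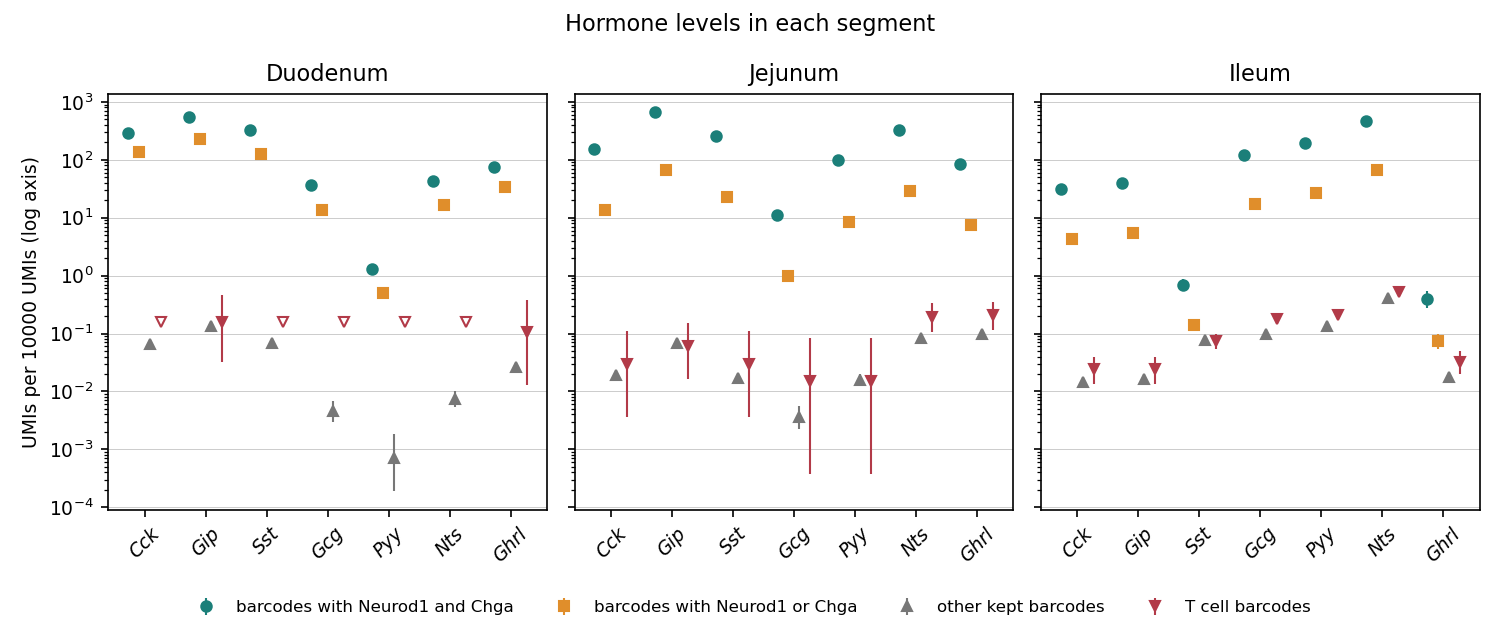
Level of each hormone (UMIs per 10000 UMIs, log axis) in each segment, for core barcodes (circles), all endocrine barcodes (squares), other barcodes within the limits (upward triangles) and T cell barcodes (downward triangles; open where 0 UMIs were found, drawn at the level of 3 UMIs). Bars are exact Poisson 95% intervals, and every hormone stands above both background sets in core barcodes, with the lowest core levels for Ghrl and Sst in the ileum. Ileal Sst rests on 1 core barcode, without which its level was 0.0544, under that of other ileal barcodes.

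Single barcodes held much of some totals. One barcode gave 97.8% of the Gcg UMIs of duodenal core barcodes, and without it the level was 0.818 instead of 36.4. One barcode gave 78.5% of duodenal Nts UMIs, and without it the level was 9.70 instead of 43.3. The largest share from 1 barcode was 77.0% for jejunal Cck, 78.1% for jejunal Sst and 92.2% for ileal Sst, where the level without it was 0.0544. In the ileum no single barcode held more than 15.4% of Pyy or 11.0% of Nts UMIs. The ileal Pyy and Nts levels therefore rested on many barcodes, and the duodenal Gcg level on 1.

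To count hormones per barcode, a barcode was called positive for a hormone when it held at least 2 of its UMIs and at least 10 of them per 10000 UMIs. Presence of 1 UMI would not separate these barcodes from background, since ileal Nts was found in 21.6% of T cell barcodes (median depth of T cell barcodes 4105 UMIs). By the stricter definition 8 of 1406 T cell barcodes were positive for any hormone (0.569%, exact 95% interval 0.246 to 1.12), all 8 in the ileum. By the summed UMIs of the 2 marker genes that chose the set, the positive share went from 66 of 15892 (0.415%) with no Neurod1 or Chga UMI to 12 of 567 (2.12%) with 1, 7 of 107 (6.54%) with 2 and 111 of 208 (53.4%) with 3 or more. The share was highest in barcodes with several UMIs of the marker genes.

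Nts-positive barcodes were the most frequent in the ileal core, with 51 of 90 (56.7%, exact 95% interval 45.8 to 67.1), against 10 of 22 in the jejunum and 2 of 47 in the duodenum. Pyy-positive barcodes followed with 38, 4 and 3 in the ileum, jejunum and duodenum. Cck-positive barcodes were spread over all segments, at 13, 5 and 17 from proximal to distal, but the median Cck level of a positive barcode was 146, 154 and 47.1. Gip was found in 9, 6 and 9 barcodes, at medians of 1553, 1658 and 184 and up to 4371 UMIs per 10000 in the duodenum. Sst was found in 5, 2 and 1 barcodes at medians of 2646, 2046 and 160. In the duodenum and jejunum these were the highest medians of the 7 hormones, whereas in the ileum Nts was, at 908. Gcg was found in 3, 2 and 8 barcodes at medians of 12.7, 66.1 and 494, and Ghrl in 10, 6 and 1 at 163, 79.95 and 14.9. Counts of barcodes with at least 1 UMI depended on depth, and in the ileal core they went from 40 to 21 for Cck, from 24 to 12 for Gcg and from 64 to 53 for Nts when each barcode was thinned to 800 UMIs. All 7 hormones together made up a median of 23.8%, 13.8% and 10.7% of UMIs in hormone-positive core barcodes of the duodenum, jejunum and ileum, and at most 44.0%.

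The 7 hormones were next compared between endocrine barcodes and all other barcodes within the limits, summed per library, to ask whether the Neurod1 or Chga choice enriched hormone RNA in every segment. The sums of Gip were 227 against 0.137 (duodenum), 67.7 against 0.0685 (jejunum) and 5.54 against 0.0166 (ileum), and those of Pyy were 0.506 against 0.000711, 8.54 against 0.0159 and 27.2 against 0.135. For both genes the endocrine sum was the higher in 3 of 3 segments. The smallest contrasts were those of ileal Sst, 0.143 against 0.0787, and of ileal Ghrl, 0.0737 against 0.0178. Higher calls were made for 5 of 7 members, beside 2.74% of 14435 genes called higher (395, with 206 lower, 4.16% in all), by edgeR's quasi-likelihood test, Benjamini-Hochberg adjusted, with the library as a block. The log2 fold changes were 9.41 for Cck (SE 0.69, adjusted p = 0.000766), 9.54 for Gip (SE 0.67, adjusted p = 0.000592), 8.73 for Gcg (SE 0.88, adjusted p = 0.00276), 8.39 for Pyy (SE 0.44, adjusted p = 0.000144) and 8.68 for Nts (SE 0.83, adjusted p = 0.00223). Sst (8.73, SE 2.70, adjusted p = 0.141) and Ghrl (6.10, SE 1.60, adjusted p = 0.0923) missed the threshold of 0.05. The median over the 7 members was 8.73 and over all tested genes -0.03. Without the ileal library 7 of 7 were called (Sst 10.36, adjusted p = 3.97e-05), and Ghrl was also called without the duodenal (adjusted p = 0.00112) or the jejunal library (adjusted p = 0.0148). With core barcodes in place of all endocrine barcodes 7 of 7 were called. Each p measures the spread over 3 libraries of pooled mice from different segments.

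Genes of the hormone-making machinery were higher in the same comparison. Of the list of other gut hormones 6 of 10 tested members were higher and 0 lower, among them Cartpt (log2 9.45), Iapp (8.54, amylin) and Ucn3 (7.43). Of prohormone processing genes 5 of 11 were higher, led by the convertase Pcsk2 (9.03), its family inhibitor Pcsk1n (8.56) and carboxypeptidase E, Cpe (7.12). Of granule proteins 14 of 20 were higher, led by Rimbp2 (9.35), Scg2 (9.21) and Snap25 (9.09), and of enteroendocrine transcription factors 15 of 28, among them Onecut3 (9.52) and Insm1 (8.87). Of nutrient and bile acid sensors 7 of 16 were higher, among them the irritant channel Trpa1 (9.31) and the lipid receptor Gpr119 (9.04). Of hormone receptors 4 of 9 were higher, led by the somatostatin receptors Sstr1 (9.08) and Sstr5 (7.77) and the galanin receptor Galr1 (8.32). No member of these 6 lists was lower. Enterocyte markers were called in 0 of 12, whereas 4 of 6 goblet and 4 of 4 Paneth markers were lower, and the part of these cell types in the hormone results was not tested.

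Most hormone-positive core barcodes carried several hormones. Of 103 positive core barcodes 36 held 1 hormone, 38 held 2, 24 held 3, 4 held 4 and 1 held 5, so that 67 (65.0%, exact 95% interval 55.02 to 74.18) held more than 1. By segment these were 17 of 21 duodenal (81.0%, 58.1 to 94.6), 9 of 16 jejunal (56.3%, 29.9 to 80.2) and 41 of 66 ileal barcodes (62.1%, 49.3 to 73.8). The barcode with 5 hormones was jejunal, with Cck at 1343, Ghrl at 168, Pyy at 151, Gcg at 84.8 and Nts at 58.8 UMIs per 10000. Over all endocrine barcodes 77 of 130 positive barcodes held several hormones (59.2%, 50.3 to 67.8), namely 21 of 28 duodenal, 10 of 20 jejunal and 46 of 82 ileal ones. Requiring 50 UMIs per 10000 left 52 of 118 (44.1%), so the share depended on the cut while several hormones per barcode stayed frequent.

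Barcodes with several hormones were deeper. Their median depth in the core was 18158 UMIs, against 5012 with 1 hormone and 5789 with none. Under 10000 UMIs 23 of 49 positive core barcodes held several hormones (46.9%, exact 95% interval 32.5 to 61.7), and from 10000 UMIs on 44 of 54 did (81.5%, 68.6 to 90.7). After thinning every barcode to 800 UMIs, where 1 UMI sufficed, the shares were 30 of 52 (57.7%) for the shallower and 45 of 53 (84.9%) for the deeper barcodes. Enterocyte markers were not higher with several hormones, at a median of 0.462% of UMIs against 0.770% with 1 hormone. No doublet caller was run, and the part of barcodes holding more than 1 cell was not tested. Leaving out the 10% of endocrine barcodes with most UMIs gave 57.7%.

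**Figure D2:**
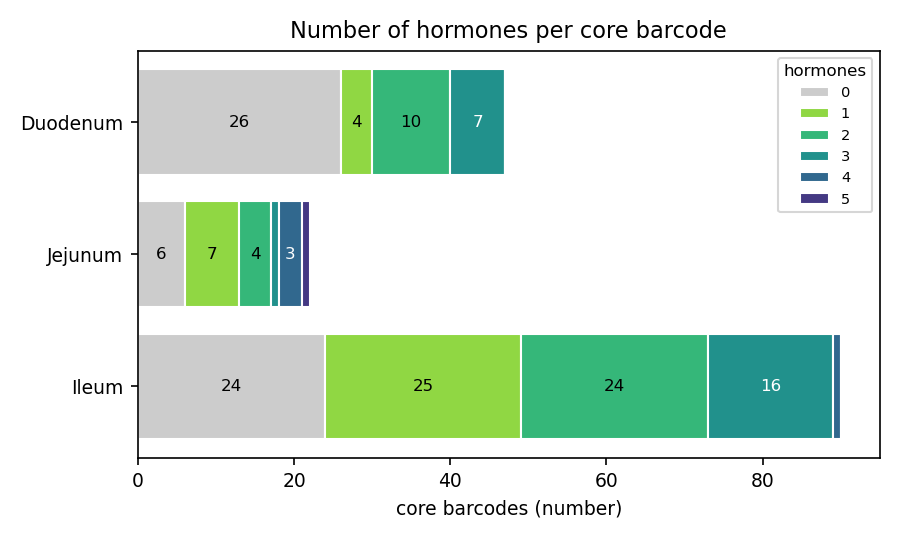
Number of core barcodes (horizontal axis) by how many of the 7 hormones they were positive for (colours), one bar per segment. The grey part of each bar is the 26, 6 and 24 barcodes of the duodenum, jejunum and ileum with none, and barcodes with several hormones outnumber those with 1 in each segment.

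The 21 pairs of hormones were unequally frequent. For each pair the number of barcodes positive for both was set against the number expected from the shares of both hormones within each library, as a description, since barcodes of 1 library are not replicates. In core barcodes 13 of 21 pairs lay above the expected number. Sst and Ghrl were together in 7 barcodes where 1.62 were expected, a ratio of 4.32 (95% interval 1.74 to 8.90), and Cck and Gcg in 11 where 2.80 were expected, a ratio of 3.93 (1.96 to 7.04). Gcg and Ghrl (4 against 1.27, ratio 3.14, 0.856 to 8.05) and Gip and Sst (5 against 1.60, ratio 3.12, 1.01 to 7.28) followed. Cck and Pyy shared 18 against 8.92, Cck and Gip 12 against 5.55, and Gip and Pyy 11 against 5.47. The ratios of the last 3 pairs were between 2.01 and 2.16, with lower interval bounds of 1.00 or more. The 159 core barcodes used here included 56 with none of the 7 hormones, which lowers every expected number. With the 103 hormone-positive core barcodes alone as the denominator, fewer pairs lay above the expected number, as given below. The intervals above hold for the 159 only.

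Most barcodes of the rarer hormone held the more frequent one for Sst with Ghrl and for Gcg with Cck. The reverse shares are capped by the unequal numbers of positive barcodes, so the shares of a pair were bound to differ. Of 8 Sst-positive barcodes 7 were Ghrl-positive (87.5%, exact 95% interval 47.3 to 99.7), whereas 41.2% of the 17 Ghrl-positive barcodes were Sst-positive. Of 13 Gcg-positive barcodes 11 were Cck-positive (84.6%, 54.6 to 98.1), whereas 31.4% of the 35 Cck-positive ones were Gcg-positive. Pyy and Nts formed the most frequent pair by number, with 29 barcodes or 64.4% of Pyy-positive and 46.0% of Nts-positive barcodes, but 23.5 were expected, since both were common in the ileum. Their ratio was 1.24 (0.83 to 1.77) and did not stand apart from 1 by counting error. Some pairs were missing. Sst was found with neither Gcg, Pyy nor Nts, where 0.590, 1.11 and 1.69 were expected, and Gip was found with Gcg in 0 barcodes where 1.92 were expected. The upper interval bounds of these ratios ranged from 1.92 for Gip with Gcg to 6.25 for Sst with Gcg, so these zeros did not stand apart from the expected numbers by counting error. Where 1 UMI sufficed, the ratios in core barcodes were 1.65 for Gip with Gcg and 1.23 for Sst with Pyy, above 1, and 0.867 for Sst with Nts and 0.444 for Sst with Gcg. In the ileum Gcg and Nts were together in 0 barcodes where 4.53 were expected (upper bound of the ratio 0.814), while in the jejunum both Gcg-positive barcodes were Nts-positive.

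**Figure D3:**
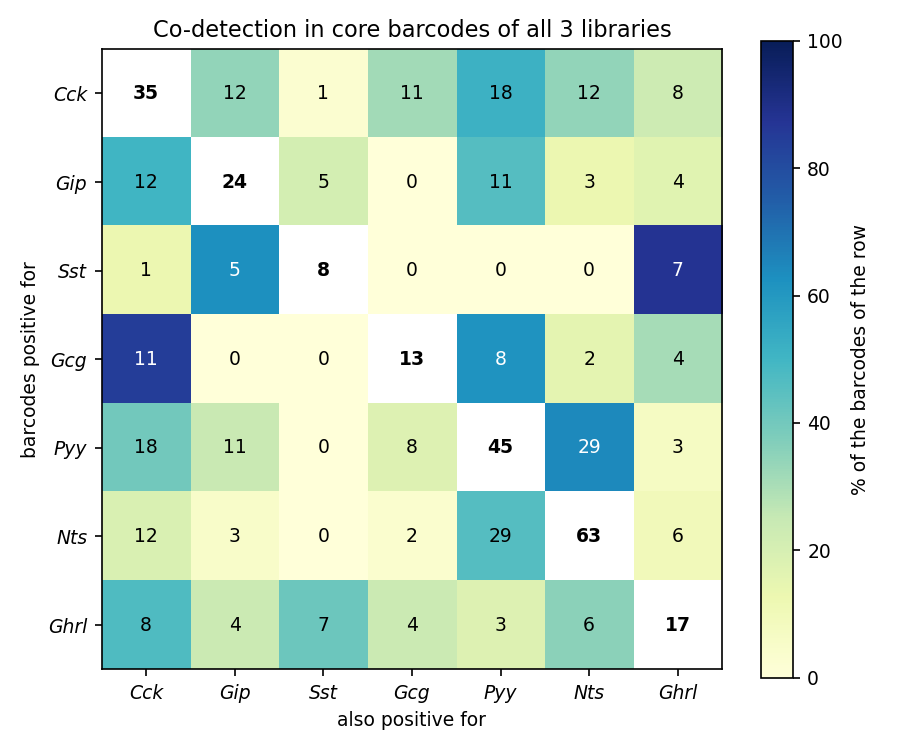
Co-detection of hormones in core barcodes of all 3 libraries: the number in a cell counts barcodes positive for the row and the column hormone, the diagonal counts barcodes positive for that hormone, and the colour is the share (in percent) of barcodes positive for the row hormone that were also positive for the column hormone. Ghrl takes 7 of the 8 Sst-positive barcodes and Cck 11 of the 13 Gcg-positive ones, and Pyy with Nts is the largest pair at 29.

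In all endocrine barcodes the pairs held 1 to 31 barcodes except the same 4 pairs at 0, and 16 of 21 lay above the expected number. The denominator there included the 752 barcodes with none of the hormones, and the ratios were larger. They were 15.4 for Cck with Gcg (14 against 0.911), 11.1 for Gcg with Ghrl (5 against 0.452), 10.1 for Gip with Pyy and for Gcg with Pyy, 9.91 for Cck with Pyy and 9.22 for Sst with Ghrl (8 against 0.868). Of the 4 pairs at 0, 3 lay above the expected number where 1 UMI sufficed, at 2.81 for Gip with Gcg, 2.06 for Sst with Pyy and 1.21 for Sst with Nts, and after thinning Gip with Gcg was at 2.80 and Sst with Nts at 4.38. By segment Cck and Gcg were together in 3, 2 and 9 barcodes, Cck and Pyy in 1, 3 and 16, and Pyy and Nts in 0, 4 and 27 of the duodenum, jejunum and ileum. Gip and Sst were together in 4, 1 and 1, Gip and Pyy in 2, 1 and 9, and Cck and Gip in 6, 3 and 5. Within the 103 hormone-positive core barcodes alone, a denominator added after the values were seen, 9 of 21 pairs lay above the expected number.

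In most barcodes with several hormones the second was well below the first. Nts had the highest level in 53 of 103 positive core barcodes, Gip in 17, Pyy in 11, Cck in 10, Sst in 7, Gcg in 4 and Ghrl in 1. Of the 67 barcodes with several hormones the second reached a median of 25.2% of the first (range 0.441 to 95.4), in 20 it was under 10% and in 47 it was 10% or more. Ghrl was the second in 6 of 7 barcodes led by Sst, and Pyy in 19 of 24 led by Nts and in 8 of 14 led by Gip. Cck was positive in 35 barcodes but led in 10, and Ghrl was positive in 17 but led in 1. Both were therefore mostly secondary messages in these cells, in contrast to Nts, which led in 53 of its 63.

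The combinations had few recurring forms. Nts alone was seen in 29 core barcodes, Pyy with Nts in 19, and Cck with Gcg and Pyy, Cck with Gip, and Cck with Gip and Pyy in 5 each. Gip with Sst and Ghrl was seen in 4 barcodes, 3 duodenal and 1 jejunal. In the 5 duodenal Sst-positive barcodes Sst lay at 1686, 2015, 2646, 2729 and 2829 and Ghrl in the same order at 945, 114, 502, 117 and 413, so the 2 levels did not rise together. Gip in the same barcodes was at 81.2, 0, 14.8, 312 and 9.83. The jejunal pair had Sst at 2539 and 1553 and Ghrl at 697 and 19.5. The single ileal Sst-positive barcode differed from these, with Sst at 160, Gip at 302, Cck at 10.9 and Ghrl at 0. The 4 ileal barcodes with Gcg above 800 all held Cck, at 47.1 to 146, and Pyy, at 53.2 to 248, whereas the duodenal barcode with Gcg at 1159 held Cck at 1496 and no Pyy UMI.

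**Figure D4:**
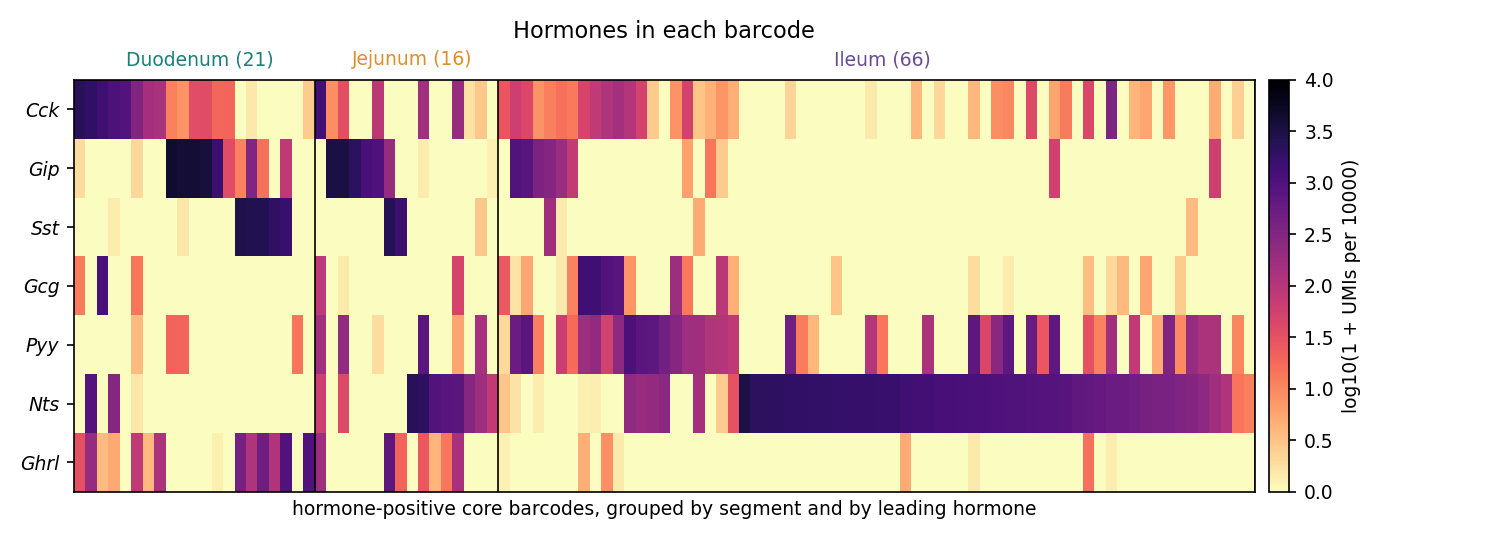
Level of each hormone (rows, UMIs per 10000 UMIs on a log colour scale) in each hormone-positive core barcode (columns), ordered within each segment by the leading hormone. Blocks of Gip, of Sst with Ghrl and of Nts with Pyy stand out, with Cck at lower levels across several blocks.

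The 56 core barcodes with none of the 7 hormones (26, 6 and 24) were looked at through Tph1, the enzyme of serotonin synthesis in enterochromaffin cells, a gene chosen after its values were seen. At least 2 UMIs of Tph1 were found in 48 of the 56 (85.7%, exact 95% interval 73.8 to 93.6) and in 9 of the 103 hormone-positive barcodes (8.74%, 4.07 to 15.9). The summed Tph1 level was 33.8, 30.1 and 19.2 in hormone-negative and 1.94, 0.469 and 0.306 in hormone-positive barcodes of the duodenum, jejunum and ileum. The negative arm of every comparison that follows thus held many Tph1-bearing barcodes.

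For each hormone, positive and negative core barcodes were then summed per library and compared over all genes, with the library as a block, to ask which other hormones and which genes of the secretory machinery went with it. Of 42 tests of the other 6 hormones 16 were called. The 7 comparisons used the same 159 barcodes, so they are not independent of each other, and their values are given side by side only. Positive barcodes were deeper than negative ones for most hormones, with median depths of 22075 against 15043 UMIs in the duodenum for Cck and 12115 against 4113 in the ileum for Pyy, and the part of depth was not tested. The summed level of the 12 enterocyte markers was 73.8, 271 and 85.4 in core barcodes positive for any hormone and 165, 225 and 394 in those positive for none, in the duodenum, jejunum and ileum.

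Summed over barcodes, Gcg was higher in Cck-positive than in Cck-negative ones, although most Cck-positive barcodes were not Gcg-positive. The Gcg level was 97.2 against 0 (duodenum), 30.4 against 0 (jejunum) and 329 against 2.32 (ileum). This was at least 1456-fold and at least 187-fold higher in the duodenum and jejunum, against a floor of 3 UMIs per arm, and 142-fold higher in the ileum. Without the 1 barcode with most Gcg the bounds were 34.6-fold in the duodenum, where it held 2558 of 2615 UMIs, and 83.0-fold in the jejunum. In the ileum barcodes with 1105, 1756, 3660 and 4191 Gcg UMIs held most of the 10898 of the positive arm. By edgeR's quasi-likelihood test, Benjamini-Hochberg adjusted, Gcg was 1 of 6 other hormones called (adjusted p = 0.0207), beside 0.743% of 5251 genes, 4 higher and 35 lower. The call was lost without the duodenal library (adjusted p = 0.0566) and without the ileal one (adjusted p = 0.131). The median log2 fold change of the 6 hormones was 2.10 and of all tested genes -0.01. Of the lists, Tac1 (tachykinin precursor) was lower, at 0 against 4.29, 0 against 0.597 and 0.121 against 2.45, as were Cartpt (0 against 5.18 in the duodenum) and the transcription factor Lmx1a (0 against 1.74, 0.597 and 0.271). No granule, processing, sensor or receptor gene was called, and 0 of 12 enterocyte markers were.

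Gip-positive barcodes had little Gcg and little Cck. Gcg was at 0 against 50.2 (duodenum), 0.0980 against 17.1 (jejunum) and 1.61 against 136 (ileum), and it was lower by edgeR's quasi-likelihood test, Benjamini-Hochberg adjusted (log2 -7.53, SE 0.69, adjusted p = 0.000617). In the duodenum 1 barcode held 2558 of the 2615 Gcg UMIs of the negative arm, and without it that level was 1.14. Cck was at 15.1 against 393, 18.8 against 224 and 18.0 against 32.5 (log2 -3.09, SE 0.74, adjusted p = 0.0449 by edgeR's quasi-likelihood test), a call that was lost without the duodenal (adjusted p = 0.117) or the jejunal library (adjusted p = 0.226). These were 2 of 6 other hormones, beside 5.83% of 3707 genes called, with a median of -1.30 over the 6 and -0.02 over all genes. Although more barcodes were positive for both Cck and Gip than expected, their Cck levels were thus low. Sst was higher in level, at 678 against 187, 584 against 88.7 and 5.37 against 0.0493, but missed the threshold (adjusted p = 0.0672 by edgeR's quasi-likelihood test). In the jejunum 1 barcode held all 5960 Sst UMIs of the positive arm and 1 held 1675 of the 1676 of the negative arm. In the ileum 1 barcode gave 59 of the 60 positive UMIs, and without it the level was 0.0925, from 1 UMI.

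Several receptor and transcription factor genes moved with Gip. The cannabinoid receptor gene Cnr1 was at 1.93 against 0.0192 (duodenum), 3.04 against 0 (jejunum) and 1.61 against 0.0123 (ileum) (log2 6.81, adjusted p = 0.000202 by edgeR's quasi-likelihood test, Benjamini-Hochberg adjusted). Of 20 tested transcription factors 5 were higher and 2 lower. Isl1 (log2 2.33), 1 of the 5, and Iapp (2.13) were higher. In the duodenum and jejunum Iapp was nearly confined to Sst-positive barcodes, as given below. Of these, 3 duodenal barcodes and 1 jejunal barcode were Gip-positive, and their part in the Iapp value was not tested. Trpa1 (-8.84), the short-chain fatty acid receptor gene Ffar2 (-4.45), Lmx1a (-7.78), Tac1 (-4.35), Foxa1 (-2.32) and the glutaminyl cyclase gene Qpct (-2.28) were lower. Of 17 granule genes 1 was higher and 2 were lower, Rab3c (-3.79) and Snap25 (-1.72), Chga being left out because it chose the barcodes. Of cell type markers 4 of 12 enterocyte and 4 of 5 goblet genes were lower, and their part in these results was not tested.

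Sst-positive barcodes of the duodenum and jejunum were rich in Ghrl and poor in the other hormones. They could be compared in the duodenum (5 positive barcodes) and jejunum (2), with sums of at least 2 barcodes, a minimum lowered after the numbers were known. Ghrl was at 415 against 22.97 in the duodenum and 484 against 31.2 in the jejunum, 18.1-fold and 15.5-fold higher (log2 4.03, SE 0.23, adjusted p = 6.54e-08 by edgeR's quasi-likelihood test, Benjamini-Hochberg adjusted). The other 5 hormones were lower. Gip was at 84.6 against 609 and 135 against 727 (log2 -2.67, SE 0.19). Cck was at 0.106 (1 UMI) against 333 and at 0 against 172, and Gcg, Pyy and Nts were at 0 UMIs in both positive arms, at least 132-fold, 4.81-fold and 158-fold lower in the duodenum and at least 14.4-fold, 126-fold and 430-fold lower in the jejunum. Without the 1 negative barcode with most UMIs of the gene, these bounds were 2.99, 2.98 and 35.5 in the duodenum. In the jejunum they were then 5.43, 46.8 and 216. All 6 of 6 hormones were called, beside 8.2% of 2952 genes, and the median over all genes was -0.04. With all endocrine barcodes Gip was at a log2 of 0.24, and in the 1 ileal Sst-positive barcode, outside the test, Gip was at 302 against 38.6. With 2 libraries 1 barcode can decide a value, and without 1 of the 2 jejunal barcodes Ghrl was at 19.5, under the 31.2 of the negative ones.

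Sst-positive barcodes also had a gene profile of their own among the lists. Iapp was at 239 against 0.256 and 134 against 0 (log2 10.40, adjusted p = 9.18e-09 by edgeR's quasi-likelihood test, Benjamini-Hochberg adjusted). Hhex, a transcription factor known from somatostatin cells of the pancreas, was at 5.38 against 0 and 7.59 against 0.195 (log2 6.56), and the potassium channel gene Kcnj11 (2.28) was higher too. Sct, which encodes secretin, fell from 357 to 27.4 and from 597 to 11.4 (log2 -4.67). Scg2 (log2 -2.30), Rab3c (-7.90) and Pcsk1n (-1.83) of the granule and processing lists were lower, as were Etv1 (-4.59), Cnr1 (-7.34) and the fatty acid receptor gene Ffar1 (-8.05). Of enterocyte markers 10 of 12 and of goblet markers 3 of 4 were lower, and their part was not tested.

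Ghrl-positive barcodes, compared in the same 2 libraries with 10 and 6 positive barcodes, included the Sst-positive ones. Sst was at 1267 against 0.0559 in the duodenum and 698 against 0.0550 in the jejunum, where the negative arms held 3 and 1 UMIs (log2 14.24, SE 1.14, adjusted p = 0.000393 by edgeR's quasi-likelihood test, Benjamini-Hochberg adjusted). Cck was at 728 against 140 and 386 against 10.7 (log2 3.89, adjusted p = 0.0395 by edgeR's quasi-likelihood test), and Nts at 134 against 12.5 and 676 against 125 (3.05, adjusted p = 0.0344 by the same edgeR test). Gip was lower, at 44.3 against 708 and 42.3 against 1027 (-4.17, adjusted p = 0.0117 by the same edgeR test). Without 1 duodenal barcode the Nts level of the positive ones was 0.0646. Of the alternatives, 6 of 11 lost the call of Cck (adjusted p up to 0.210 by edgeR's quasi-likelihood test), 5 that of Nts (up to 0.622 by the same edgeR test), 4 that of Gip (up to 0.472) and 1 that of Sst (up to 0.332). These were 4 of 6 hormones, beside 3.78% of 2855 genes, with medians of 2.09 over the 6 and 0.01 over all genes. Ghrl thus went with high Sst in some barcodes and with Cck or Nts in others, as no Sst-positive barcode was positive for Nts. Iapp (9.29) and Hhex (5.16) were higher, as were Etv1 (1.87), Scg2 (1.93) and Qpct (2.13), while Tac1 (-5.81), Lmx1a (-7.80), Cnr1 (-7.80), the guanylin-family gene Guca2b (-3.34) and the glucose transporter gene Slc5a1 (-1.74) were lower. Of enterocyte markers 6 of 12 were lower.

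Gcg-positive barcodes (3, 2 and 8, again with sums of at least 2) had little Gip and no Sst. Gip was at 0.703 against 599, 0 against 788 and 1.21 against 49.0, and Sst at 0 against 357, 0 against 315 and 0 against 0.863, both lower by edgeR's quasi-likelihood test, Benjamini-Hochberg adjusted (adjusted p = 0.0479 and 0.0177). These were 2 of 6 hormones, beside 0.908% of 3965 genes, with medians of -3.65 over the 6 and -0.03 over all genes. Neither call remained when any 1 of the 3 libraries was left out, with adjusted p of 0.299, 0.333 and 0.0791 for Gip and 0.166, 0.139 and 0.0791 for Sst without the duodenum, jejunum and ileum by edgeR's quasi-likelihood test. Cck was at 1558 against 150, 796 against 23.5 and 62.5 against 23.03, but with an adjusted p of 0.386 by edgeR's quasi-likelihood test. Tac1 (log2 -4.33) and Iapp (-11.50) were lower, no Iapp UMI being found in the positive arms, and 4 of 12 enterocyte markers were lower. All Sst-positive barcodes, in which Iapp was high in the duodenum and jejunum, lay in the negative arms, and their part was not tested.

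Pyy-positive barcodes (3, 4 and 38, sums of at least 2) differed from negative ones in Sst. Sst was at 0.191 against 347, 0.129 against 358 and 0.0754 against 1.53 (log2 -8.63, SE 1.18, adjusted p = 0.000554 by edgeR's quasi-likelihood test, Benjamini-Hochberg adjusted), 1 of 6 hormones beside 3.27% of 5376 genes. The duodenal and jejunal positive sums held 1 Sst UMI each, and without 1 barcode the ileal negative level was 0.0257, under the positive one. The median was 0.92 over the 6 and -0.05 over all genes. Gip was at 3021 against 344, 946 against 552 and 66.7 against 2.98, but missed the threshold (adjusted p = 0.0856 by edgeR's quasi-likelihood test). In the jejunum 1 barcode held 7346 of the 7347 Gip UMIs of the positive arm. Without it the level was 0.182, under the 552 of the negative arm. Of the other lists Tac1 (log2 -5.25), Iapp (-3.83), Guca2b (-3.95) and Hhex (-6.02) were lower, and no granule, processing, sensor or receptor gene was called. The Sst-positive barcodes, with high Iapp and Hhex in the duodenum and jejunum, again all lay in the negative arms, and their part was not tested. Of enterocyte markers 8 of 12 were lower, and the part of enterocyte RNA in the negative arm was not tested.

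Nts-positive barcodes were compared in the jejunum (10 against 12) and ileum (51 against 39). No gene of 4741 was called, that is 0% by edgeR's quasi-likelihood test, with 221 at an unadjusted p under 0.05 and 4 called by DESeq2, and 0 of 6 hormones were called. The median was -1.10 over the 6 and 0.02 over all genes. Pyy was at 171 against 0.0798 (jejunum) and 306 against 90.3 (ileum). Gip was at 443 against 940 and 2.17 against 74.1, and Sst at 0.0603 against 609 and 0.0678 against 1.27. In the jejunum 1 barcode held 7346 of the 7348 Gip UMIs of the positive arm, and without it the level was 0.140. The jejunal sums held 1 UMI of Pyy in the negative and 1 of Sst in the positive barcodes, and the ileal positive sum 3 of Sst. Gcg went in opposite directions, at 19.6 against 0 (jejunum) and 0.678 against 229 (ileum), and this difference between libraries was not tested.

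**Figure D5:**
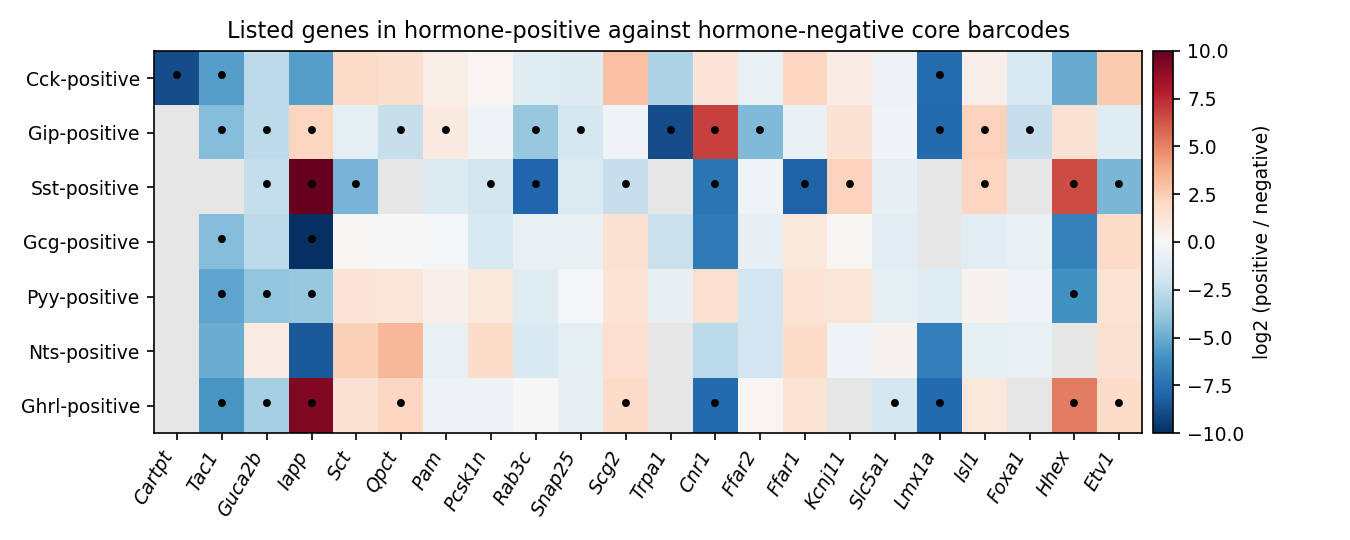
Log2 fold change between hormone-positive and hormone-negative core barcodes (colour, ending at 10 and -10) of the list genes that the naming rule picked in at least 1 comparison (columns), in each of the 7 comparisons (rows), with a dot where edgeR's adjusted p was under 0.05 and grey where a gene was not tested. Iapp and Hhex are high with Sst and Ghrl, Cnr1 and Isl1 with Gip, and Tac1 is low with 5 of the 7 hormones.

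Finally, the genes whose level followed each hormone most closely over the 159 core barcodes were listed, by Pearson correlation of ln(1 + UMIs per 10000) centred within library, among 8756 genes found in at least 10% of core barcodes. Barcodes share library and depth, so these are descriptions. Sst was followed by Iapp (r = 0.95), A2ml1 (0.75) and the acid-sensing ion channel family gene Asic5 (0.72). Gip was followed by Fabp5, a fatty acid-binding protein (0.81), Cnr1 (0.79) and the adhesion receptor gene Cd44 (0.76), with values from 0.65 to 0.93 in the single libraries. These were the closest of all, and Gip kept its neighbours in every segment while Sst, with 1 positive ileal barcode, had r of -0.04 with A2ml1 and -0.06 with Asic5 there.

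Other hormones had looser neighbours. Nts was followed by the adhesion receptor gene Adgrd1 (0.66), Rassf9 (0.62) and Sct (0.61). Cck was followed by Scg2 (0.62) and Gm11992 (0.61), among others. Gcg was followed by Gpr119 (0.57), Cck (0.55) and the neurotrophic factor receptor gene Gfra3 (0.49), and Pyy by the microtubule-binding gene Map2 (0.58), Scg2 (0.55) and Etv1 (0.53). Ghrl was followed by Sst (0.61), Iapp (0.60) and Ceacam10 (0.58). Among the members themselves Ghrl with Sst and Gcg with Cck thus had the highest r, while Pyy and Nts, the most frequent pair, had r of 0.16. Barcodes with 0 UMIs of a hormone entered r, and Sst was found in 10.1% of core barcodes. The values of r are therefore not separate from joint detection.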

How the data were processed

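UMI counts per gene and barcode of the 3 libraries were used as deposited by the authors, in 10x matrix folders. Per the labels, cells from 3 mice per segment were pooled, sorted and captured with 3′ v3 chemistry. Cell Ranger 3.0.2 and the builds GRCm38 and mm10 are named in the submitters' processing notes, and other settings are not given in the sources used here. Of 31053 genes, 30934 matched a gene identifier in the annotation. The matrices hold 27235 barcodes.

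The hormone genes and gene lists were chosen with earlier results of these data known. Barcodes were kept at 800 to 50000 UMIs and at most 40% mitochondrial UMIs, limits that the study also used. Endocrine barcodes had at least 1 UMI of Neurod1 or Chga, and core barcodes had both. A barcode was hormone-positive at 2 or more UMIs and 10 or more per 10000 UMIs. Levels carry exact Poisson and shares exact Clopper-Pearson binomial 95% intervals, which cover counting error only. A count of 0 was replaced by a floor of 3 UMIs in fold bounds. No doublet caller was run. T cell barcodes served as background.

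Cells are not replicates, so counts were summed per library and arm (at least 5 barcodes; at least 2 for Sst, Gcg and Pyy, which was added after seeing the data). Sums were tested by edgeR 4.0.16 in R 4.3.3 (filterByExpr, TMM, quasi-likelihood F test with the library as block, p-values adjusted over all genes tested by Benjamini-Hochberg, threshold 0.05). P-values measure the spread between 3 or 2 libraries, each a pool from another segment of the gut. No source says whether the pools came from the same mice. The script was tested on simulated data. Named genes are the 7 hormones, the 3 genes most correlated with each over core barcodes, and the 3 called members of largest absolute log2 fold change of each list in each comparison. Tph1 stands outside this rule, and some genes that the rule picked are not reported here. Neurod1 and Chga, which chose the barcodes, were left out of list counts and of the named genes.

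Alternatives were 20% mitochondrial UMIs, 200 to 6000 genes per barcode, other positive cuts, thinning to 800 UMIs (seed 1), leaving out the 10% of barcodes with most UMIs or most enterocyte UMIs, no TMM, no gene filter, no block, DESeq2 1.42.0, other sets of barcodes and leaving out each library. Promoters came from RefSeq on GRCm38.p6, the build the notes name. Python 3.11.15 with numpy 2.4.6, pandas 2.3.3, scipy 1.17.1 and matplotlib 3.10.9 was used.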

Additional observations from a re-analysis of the deposited data

Results flagged for a closer look

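For 7 pairs of hormones the positive and negative core barcodes differed by 2-fold or more in opposite directions in different libraries, with intervals that did not overlap and at least 5 barcodes in each sum. Each value is the difference between the log2 ratios of the 2 libraries farthest apart, and none of these differences was tested, since each segment has 1 library. Sst in Cck-positive barcodes differed by 18.5, at 1.81 against 0.0676 UMIs per 10000 in the ileum and 0.0372 (1 UMI, exact Poisson 95% interval 0.000941 to 0.207) against 514 in the duodenum. One barcode gave 59 of the 60 ileal UMIs, and without it the ileal level was 0.0305, under the 0.0676 of the negative barcodes. Nts in Cck-positive barcodes differed by 13.3, at 116 against 0.0445 (2 UMIs, 0.00539 to 0.161) in the duodenum and 160 against 642 in the ileum. Ghrl in Cck-positive barcodes differed by 4.52, at 0.875 against 0.118 in the ileum and 32.3 against 100.1 in the duodenum. Pyy in Gip-positive barcodes differed by 4.35, at 3.598 against 0.460 in the duodenum and 47.7 against 125 in the jejunum, where the negative level was 28.2 without 1 barcode. Gcg in Nts-positive barcodes differed by at least 14.8, at 19.6 against 0 (jejunum) and 0.678 against 229 (ileum). Gcg in Ghrl-positive barcodes differed by 13.003, at 29.6 against 0.0550 from 1 UMI (0.00139 to 0.307) in jejunal and 3.13 against 47.7 in duodenal barcodes, where 1 barcode gave all Gcg UMIs of the negative sum. Pyy in Ghrl-positive barcodes differed by 5.38, at 209 against 30.8 (jejunum) and 0.274 against 1.68 (duodenum). Pyy-positive and Gcg-positive barcodes, with sums of 2 to 4 in some libraries, gave 5 more pairs with opposite directions, also not tested, and that of Nts in Gcg-positive barcodes was smaller than 2-fold in the jejunum. Cck in Pyy-positive barcodes was at 6.30 against 312 (duodenum), 496 against 26.4 (jejunum) and 51.3 against 3.01 (ileum). Gcg in Pyy-positive barcodes was at 0 against 39.3, 27.8 against 5.11 and 206 against 2.60, and Nts at 0 against 46.7, 721 against 191 and 492 against 437. In Gcg-positive barcodes Nts was at 0.141 against 48.02, 396 against 320 and 0.607 against 583, and Ghrl at 34.3 against 79.1, 152 against 71.0 and 1.21 against 0.189.

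Hormone RNA was also found outside the endocrine barcodes. Of 15892 barcodes within the limits but with no Neurod1 or Chga UMI, 8 held a hormone at 50 or more UMIs per 10000. This was 0.0503% (exact 95% interval 0.0217 to 0.0992), with Sst in 3, Nts in 2, and Gip, Gcg and Pyy in 1 each, up to 1039. Of the 1406 T cell barcodes, which are part of the 15892, 0 held a hormone at that level. This allows a share of up to 0.213% at 3 counts (exact 95% upper bound 0.262%). That bound lies above 0.0503%, so the T cell barcodes did not stand apart by counting error. Of 192 barcodes over the mitochondrial limit 4 were hormone-positive (2.08%, exact 95% interval 0.571 to 5.25).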

How the results depend on the processing

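Most values rest on few barcodes, with 22 core barcodes in the jejunum and 8 Sst-positive ones in all, and 1 library per segment leaves segment differences without replicates. The depth limits pairs that were not seen, and barcodes just under the positive cut are counted as negative.

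The share of positive endocrine barcodes with several hormones fell from 59.2% to 37.0% when 1 UMI sufficed (duodenum 53.8%, ileum 34.6%) and to 44.1% at 50 UMIs per 10000 (48% and 44%). Above-expected pairs numbered 16, and 9 within hormone-positive core barcodes. Hormones highest in the duodenum numbered 4, and 2 in core barcodes. Of 42 hormone tests 16 were called, and 9 without the block, 30 with all endocrine barcodes, 6 when 1 UMI sufficed and 9 after thinning. With all endocrine barcodes calls over all genes also rose for Cck, Gcg, Gip, Nts and Pyy, as given below, so the 30 are not particular to hormones. Of 7 hormones in endocrine barcodes 5 were called, and 0 without the block. With all endocrine barcodes Gip in Sst-positive barcodes turned from -2.67 to 0.24, and the cause was not tested. Of the 16 calls, those of Gcg in Gip-positive and of Sst in Pyy-positive barcodes were kept in 15 of 15 alternatives each, while fewer were kept for Cck in Ghrl-positive (5 of 11), Gip in Gcg-positive (6 of 14) and Cck in Gip-positive barcodes (7 of 15).

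Counts of called genes moved most. For endocrine barcodes (601) they were 1140 by DESeq2, 4890 with core barcodes, 383 without TMM, 938 without the gene filter and 129 without the block. For Cck (39) they were 62 at 200 to 6000 genes, 62 by DESeq2, 2268 with all endocrine barcodes, 67 at 1 UMI, 73 at 50 UMIs per 10000, 152 without TMM, 357 without the gene filter, 3 without the block, 155 with sums of 10 or more barcodes and 109 without the deepest 10%. For Gcg (36) they were 67 at 200 to 6000 genes, 1535 with all endocrine barcodes, 116 at 1 UMI, 22 without TMM, 164 without the gene filter, 1 without the block and 7 without the barcodes richest in enterocyte UMIs. For Ghrl (108), in the order DESeq2, 1 UMI, thinning, 20% mitochondrial UMIs, no TMM, no gene filter and enterocyte UMIs, they were 42, 43, 32, 31, 243, 373 and 37. For Gip (216) they were 117 by DESeq2, 1842 with all endocrine barcodes, 34 at 1 UMI, 76 after thinning, 627 without the gene filter and 87 without the block. For Nts (0) they were 1 at 200 to 6000 genes, 4 by DESeq2, 2379 with all endocrine barcodes, 3 after thinning, 3 at 50 UMIs per 10000, 33 without TMM, 71 without the gene filter and 18 without the barcodes richest in enterocyte UMIs. For Pyy (176) they were 80 by DESeq2, 2259 with all endocrine barcodes, 13 without the block and 21 without the barcodes richest in enterocyte UMIs. For Sst (242) they were 47 by DESeq2, 102 at 1 UMI, 145 at 20% mitochondrial UMIs and 123 without the block. The cause was not tested.

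Leaving out 1 library gave 700 to 1598 calls for endocrine barcodes (1598 without the duodenum), 0 to 155 for Cck (0 without the ileum, 155 without the jejunum), 0 to 9 for Gcg (0 without the duodenum or ileum, 9 without the jejunum), 91 to 226 for Gip (91 without the jejunum, 122 without the ileum) and 28 to 202 for Pyy (28 without the ileum). Sst, Nts and Ghrl, with 2 libraries, allowed no fit without either of these, and for Gip sums of 10 or more barcodes could not be fitted. Leaving out the library that Sst, Nts and Ghrl did not use left their sums the same. That fit is counted among their alternatives although it could change nothing. The library as block paired the compared sums within each library, in all fits but those without the block. Segments could not be tested against each other because each segment has 1 library.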
